A study of Mus musculus with 15 samples.

Results

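The age course of 41 genes that encode nuclear receptors, the Rev-erbs Nr1d1 and Nr1d2 not among them, was read from kidney RNA. The genes were chosen by name, with no use of measured values in the rule, from 33058 genes of the assembled kidney transcriptome. The gene value was the sum of the FPKM (sequenced fragments relative to transcript length and to library size) over every isoform that was annotated, contained in an annotated transcript, spliced differently from it or overlapping its exons. Kidney RNA was sequenced from 15 male C57BL/6 mice with no transgene and no treatment, 5 mice each at 3, 12 and 24 months of age, with 1 library per mouse. The mice had standard chow and tap water and were under urethane anaesthesia when the kidneys were taken. The study set the 24-month mice against the 3-month mice, and the 12-month mice were added here. Kidney tissue of mixed cell types was sequenced, so fewer cells of a type and less RNA per cell cannot be told apart. Per the paper's methods the kidney used was split into several portions before freezing, and which portion gave the RNA is not stated.

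Nuclear receptors are transcription factors that bind DNA through a zinc-finger domain and, in most members, are switched by a small lipophilic ligand in a separate domain. Several steroid receptors wait in the cytoplasm on heat shock protein chaperones and move to the nucleus as pairs of the same receptor, whereas the thyroid hormone, retinoic acid, vitamin D, PPAR, LXR and FXR receptors sit on DNA with the retinoid X receptors as their shared partner. In the kidney, HNF4A maintains proximal tubule identity, PPARA drives fatty acid oxidation, VDR and its targets handle calcium, and the mineralocorticoid receptor NR3C2 sets sodium uptake in the distal nephron. The NR4A receptors are known as immediate early genes, switched on within minutes of a stimulus and without a classical ligand.

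The libraries held between 5.03 and 8.03 gigabases of aligned coverage over the listed transcripts. The 3-month libraries held 5.03 to 6.13 gigabases and between 23354 and 24198 genes above 0. The 12-month libraries held 5.84 to 8.03 gigabases and 24462 to 25350 such genes, and the 24-month libraries 6.07 to 7.33 gigabases and 24747 to 25435 genes. The defining markers of proximal tubule, thick limb, distal convoluted tubule, collecting duct, podocytes and endothelium were above 0 in every mouse. Of the markers of other cells, the summed level of 4 lymphocyte genes ranged from 0.398 to 1.73 FPKM at 3 months, from 2.32 to 3.74 FPKM at 12 months and from 1.69 to 3.399 FPKM at 24 months, and 3 of the 4 were higher at an unadjusted p under 0.05 at 24 against 3 months. At such a p 2 of 5 stromal, 1 of 5 endothelial and 1 of 5 adrenal cortex markers were also higher. Of all genes 11.4% were higher and 3.47% lower at such a p. Macrophage, adipocyte and muscle markers had 0 genes with an unadjusted p under 0.05 at 24 against 3 months, and of the tubule markers Slc5a2, Slc5a12 and Slc26a4 were lower at such a p. The summed level of 5 stromal genes was 35.6 to 55.5, 54.9 to 82.6 and 47.8 to 71.3 FPKM at the 3 ages in order. The summed level of 5 adrenal cortex genes was 1.05 to 1.75, 1.73 to 2.34 and 1.91 to 3.25 FPKM. The part of cell makeup, of the kidney portion taken, of the hour of collection and of depth in the age differences below was not tested.

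All 41 receptor mRNAs were listed above 0 in some mouse, and 40 in all 15 mice. The exception was the photoreceptor gene Nr2e3, which was listed at 0 in 5 mice and averaged 0.0299 FPKM. Mean levels over the 15 mice spanned from 0.0299 to 147 FPKM with a median of 5.52 FPKM. Of the 41 genes, 13 averaged at least 10 FPKM, 19 lay from 1 to under 10 FPKM and 9 lay under 1 FPKM. The plot of receptor levels by mouse shows all of them.

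**Figure D1:**
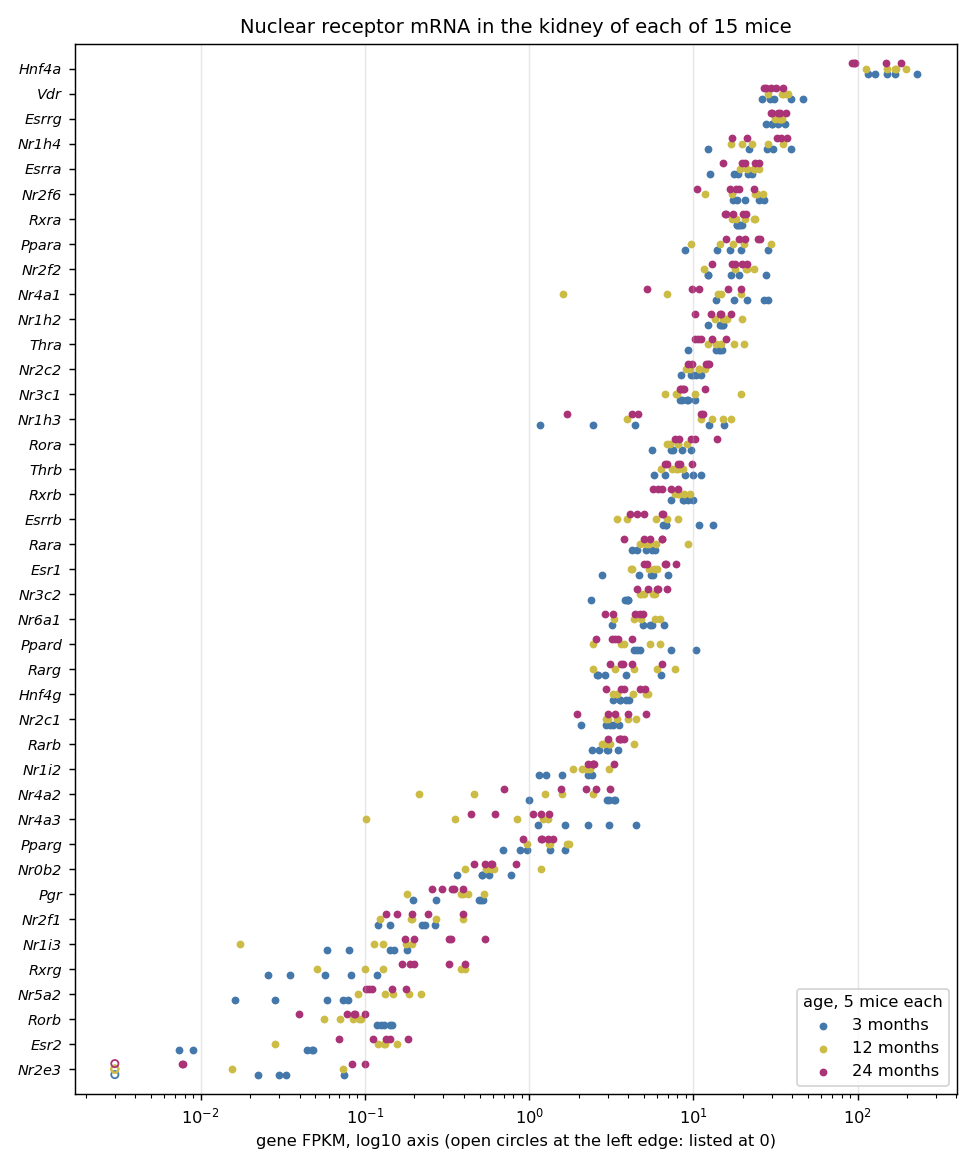
FPKM of each of the 41 receptor genes (rows, ordered by mean) on a log10 axis, with 1 point for each of 5 mice at 3 months (blue), 12 months (yellow) and 24 months (purple). Hnf4a lies to the right of every other receptor in all 15 mice, and 9 genes average under 1 FPKM, where the spread between mice is wide on this axis.

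Hnf4a, which encodes the receptor-type factor of the proximal tubule, was the most abundant member. Hnf4a was at 128, 231, 151, 115 and 168 FPKM in the 3-month mice, 168, 151, 170.3, 198 and 112 in the 12-month mice and 184, 95.2, 96.8, 148 and 92.6 in the 24-month mice. It lay above Vdr, the next gene, in 15 of 15 mice, and its ages overlapped (log2 fold change -0.38, SE 0.25, unadjusted p = 0.164, adjusted p = 0.537).

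The next 5 genes in the order did not keep one order from mouse to mouse. Vdr was at 29.4, 46.3, 26.1, 39.1 and 30.9 FPKM in the 3-month mice, 35.2, 28.7, 36.9, 37.5 and 34.8 in the 12-month mice and 32, 35, 29.5, 27.7 and 26.9 in the 24-month mice. Esrrg was at 30.3, 27.6, 36.2, 32.7 and 30.3 FPKM in the 3-month mice, 34.1, 34.8, 31.5, 33.7 and 33.3 in the 12-month mice and 29.8, 30.2, 36.6, 32.7 and 33.6 in the 24-month mice. Vdr, the vitamin D receptor, exceeded the estrogen-related receptor Esrrg in 9 of 15 mice. Nr1h4 was at 39.5, 12.2, 27.9, 30.5 and 21.9 FPKM in the 3-month mice, 22.6, 19.7, 28.6, 34.9 and 17.1 in the 12-month mice and 17.2, 34.2, 32.3, 21.1 and 37.4 in the 24-month mice. Esrra was at 12.6, 21.5, 17.7, 22.8 and 18.6 FPKM in the 3-month mice, 19.2, 21.2, 23.5, 23.5 and 25.2 in the 12-month mice and 25, 23.6, 19.8, 15.1 and 20.5 in the 24-month mice. Nr1h4 encodes the bile acid receptor FXR and Esrra a partner of the coactivator PGC-1alpha in mitochondrial gene expression, and Nr1h4 was the higher of the 2 in 11 mice. Nr2f6 was at 26.9, 20.6, 25, 18.4 and 17.4 FPKM in the 3-month mice, 11.7, 24.3, 17.1, 23.8 and 26.4 in the 12-month mice and 23.3, 16.7, 18.9, 10.5 and 18.1 in the 24-month mice. Nr2f6, an orphan receptor of the COUP family, shared 1622 exonic bases with Ocel1 on the opposite strand. Rxra was at 18.3, 19.1, 19.3, 18.4 and 19.6 FPKM in the 3-month mice, 20.7, 17.3, 18.1, 23.3 and 23.6 in the 12-month mice and 20.8, 19.9, 15.5, 15.9 and 17.5 in the 24-month mice. Rxra, the shared partner of many members, kept close to 19.2 FPKM (mean over 15 mice) at every age. None of these 6 genes had an unadjusted p under 0.05 in any of the 3 comparisons.

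Spread between mice differed widely among the members above 1 FPKM. At 3 months the coefficient of variation over 5 mice ran from 3.06% for Rxra to 88.6% for Nr1h3, with a median of 24.2% over 32 genes. The median was 21.2% at 12 months and 18.8% at 24 months. Nr1h3 encodes the oxysterol receptor LXRalpha and was singled out after its values were seen. Nr1h3 was at 12.4, 1.16, 2.45, 4.41 and 15.4 FPKM in the 3-month mice, 11.1, 3.93, 13, 15.1 and 16.9 in the 12-month mice and 11.1, 4.23, 4.62, 1.7 and 11.4 in the 24-month mice. High and low mice occurred at every age, and its largest isoform Nr1h3-202 held 57.6% of the gene's FPKM. No comparison of ages had an unadjusted p under 0.05 beside this spread. The log2 fold change was 0.09 at 24 against 3 months (SE 0.64, limma unadjusted p = 0.896, adjusted p = 0.962). It was 0.95 at 12 against 3 months (SE 0.59, unadjusted p = 0.141, adjusted p = 0.509), the highest of the 41 receptors there. At 24 against 12 months it was -0.87 (SE 0.49, unadjusted p = 0.106, adjusted p = 0.820), the lowest of the 41.

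No receptor gene passed an adjusted p of 0.05 in any of the 3 comparisons across all genes (limma on log2(FPKM + 1)). At 24 against 3 months 1.22% of 31755 genes passed, at 12 against 3 months 0.25% of 31637, and at 24 against 12 months 0.0031% of 32282. At an unadjusted p under 0.05, 12 of 41 receptors stood apart at 24 against 3 months, 6 higher and 6 lower, where the background was 14.9% of all genes. The 6 higher receptors stood beside a background of 11.4% of genes higher, and the 6 lower receptors (14.6%) beside 3.47% of genes lower. This background differs in level, since 18309 of the 31755 genes averaged under 1 FPKM, against 9 of the 41 receptors. Of those 18309 genes that had an unadjusted p under 0.05, 88.3% were higher. No background of like level is given here. At 12 against 3 months 6 of 41 receptors had such a p, 3 in each direction, beside 14.3% of all genes (11.4% higher and 2.9% lower). At 24 against 12 months there were 2, beside 6.43%. The median log2 fold change of the 41 receptors was 0.05 at 24 against 3 months, where the median of all genes was 0.02, and 25 of 41 lay above 0. The 2 comparisons with the 3-month mice share those mice.

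**Figure D2:**
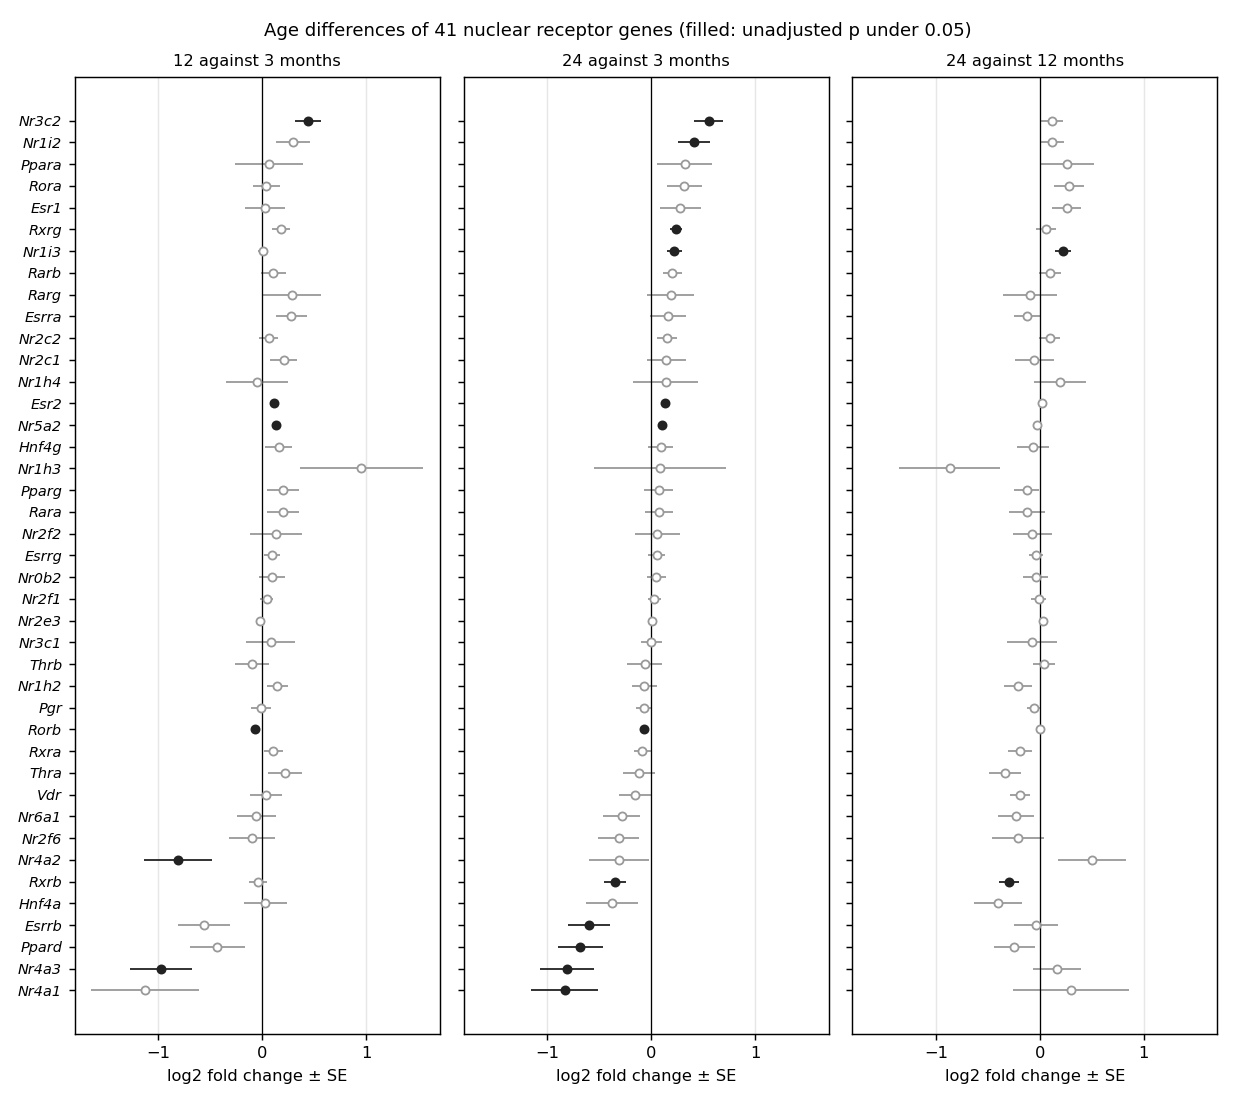
Log2 fold change ± SE (limma) on log2(FPKM + 1) of the 41 receptor genes in 3 comparisons of ages, 5 mice per age; filled points have an unadjusted p under 0.05 and no gene had an adjusted p under 0.05. Nr4a1, Nr4a3, Ppard and Esrrb sit farthest left at 24 against 3 months and Nr3c2 farthest right.

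The 5 mice of the 2 ages did not overlap for 6 receptors at 24 against 3 months (Nr3c2, Rxrg, Esr2 and Nr5a2 higher, Ppard and Rorb lower), beside 4.73% of all genes (3.82% higher and 0.91% lower). At 12 against 3 months this held for 3 receptors (Nr3c2 and Nr5a2 higher, Rorb lower), beside 4.11% of genes (3.45% higher and 0.667% lower), and at 24 against 12 months for 0 receptors, beside 1.07%.

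Among the 8 thyroid hormone and retinoid receptors, 1 was higher and 1 lower at 24 against 3 months at an unadjusted p under 0.05. The shares of all genes were 11.4% higher and 3.47% lower. Rxrb, the broadly expressed retinoid X receptor, was lower in the 24-month mice. Rxrb was at 7.32, 9.94, 9.31, 8.78 and 8.6 FPKM in the 3-month mice, 8.07, 8.82, 7.73, 8.15 and 9.53 in the 12-month mice and 7.35, 8.04, 6.09, 5.66 and 6.41 in the 24-month mice. The 24-month mice overlapped both younger ages, with 3 of 5 below every younger mouse. The means of Rxrb were 8.79 ± 0.974, 8.46 ± 0.715 and 6.71 ± 0.969 FPKM at 3, 12 and 24 months (SD, n = 5 each). The difference was near in size against the 3-month mice (log2 fold change -0.35, SE 0.10, unadjusted p = 0.00808, adjusted p = 0.154) and the 12-month mice (log2 fold change -0.30, SE 0.09, unadjusted p = 0.0105, adjusted p = 0.707). Rxrg, the muscle and brain member of that trio, was rare. Rxrg was at 0.0819, 0.0256, 0.035, 0.0569 and 0.118 FPKM in the 3-month mice, 0.382, 0.13, 0.409, 0.0508 and 0.0998 in the 12-month mice and 0.169, 0.199, 0.187, 0.327 and 0.408 in the 24-month mice. All 5 mice at 24 months exceeded all 5 at 3 months (log2 fold change 0.24, SE 0.05, unadjusted p = 0.00148, adjusted p = 0.0712), and the 12-month mice spanned both. Thra, Thrb, Rara, Rarb and Rarg, which bind thyroid hormone or retinoic acid, had unadjusted p between 0.0526 and 0.734 over the 3 comparisons. The 3' end of Thra shared 263 exonic bases with Nr1d1 on the opposite strand, and Rarb shared 1793 with Top2b.

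The next group held 9 receptors for lipids, bile acids, vitamin D and foreign compounds. At an unadjusted p under 0.05, 2 were higher and 1 lower at 24 against 3 months, beside 11.4% and 3.47% of all genes. Ppard encodes the widely expressed PPARdelta, which acts on fatty acid use. Ppard was at 10.4, 4.35, 4.55, 4.74 and 7.27 FPKM in the 3-month mice, 3.77, 2.45, 3.65, 5.42 and 6.28 in the 12-month mice and 3.32, 4.24, 3.46, 2.56 and 3.18 in the 24-month mice. Every 24-month mouse lay below every 3-month mouse, with 4.24 FPKM as the highest of the old and 4.35 FPKM as the lowest of the young. The means of Ppard were 6.26 ± 2.59, 4.31 ± 1.52 and 3.35 ± 0.601 FPKM at 3, 12 and 24 months (SD, n = 5 each). The gene-level difference was the largest decrease of this group (log2 fold change -0.68, SE 0.22, unadjusted p = 0.0106, adjusted p = 0.172). With annotated isoforms alone the log2 fold change was -0.04 (SE 0.36, limma unadjusted p = 0.909).

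Nr1i2 encodes the xenobiotic sensor PXR. Nr1i2 was at 1.14, 1.58, 1.27, 2.28 and 2.42 FPKM in the 3-month mice, 2.34, 2.11, 1.85, 2.24 and 3.06 in the 12-month mice and 3.28, 2.47, 2.45, 2.28 and 2.45 in the 24-month mice. Of the 3-month mice 3 lay below all 24-month mice and the other two reached the lower end of the old range (log2 fold change 0.41, SE 0.15, unadjusted p = 0.0257, adjusted p = 0.253). With annotated isoforms alone its log2 fold change was 0.45 (SE 0.46, limma unadjusted p = 0.361), and after quantile normalization it was 0.31 (SE 0.14, limma unadjusted p = 0.0561). Nr1i3 encodes CAR, the partner sensor of the liver. Nr1i3 was at 0.143, 0.181, 0.15, 0.0805 and 0.0587 FPKM in the 3-month mice, 0.128, 0.114, 0.177, 0.0174 and 0.192 in the 12-month mice and 0.335, 0.199, 0.174, 0.535 and 0.326 in the 24-month mice. Of the 24-month mice 4 lay above all 10 younger mice, and the fifth lay within them. Its unadjusted p was under 0.05 against 3 months (log2 fold change 0.22, SE 0.07, unadjusted p = 0.0114, adjusted p = 0.178) and against 12 months (log2 fold change 0.22, SE 0.08, unadjusted p = 0.0163, adjusted p = 0.714). Neither comparison passed the adjusted threshold. Against 3 months the unadjusted p was under 0.05 in 15 of 16 settings. Nr1i3 shared 3304 exonic bases with Tomm40l on the opposite strand. Ppara, Pparg, Nr1h2, Nr1h3, Nr1h4 and Vdr had unadjusted p between 0.0743 and 0.896 over the 3 comparisons.

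Among the 10 ROR, HNF4, testicular and COUP receptors, Rorb was the 1 gene with an unadjusted p under 0.05 and was lower at both older ages. RORB is a brain and retina receptor, and its mRNA was near 0.1 FPKM. Rorb was at 0.119, 0.126, 0.131, 0.145 and 0.142 FPKM in the 3-month mice, 0.0701, 0.0916, 0.0941, 0.0845 and 0.0561 in the 12-month mice and 0.10, 0.0781, 0.0861, 0.0874 and 0.0395 in the 24-month mice. The 3-month mice all lay above the other 10 mice (log2 fold change -0.07, SE 0.02, unadjusted p = 0.00296, adjusted p = 0.0974, and log2 fold change -0.07, SE 0.02, unadjusted p = 0.00141, adjusted p = 0.0982 at 12 against 3 months). Its adjusted p was 0.0257 after quantile normalization and 0.0435 with all 15 mice in 1 fit. Rora, Hnf4g, Nr2c1, Nr2c2, Nr2e3, Nr2f1 and Nr2f2 had log2 fold changes between 0.01 and 0.32 at 24 against 3 months. Rora, a regulator of the clock and of lipid genes, had the largest of these, at 7.72 ± 1.53 FPKM at 3 months and 9.93 ± 2.42 FPKM at 24 months (SD, n = 5 each). Nr2c2 shared 4590 exonic bases with Mrps25 on the opposite strand.

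The steroid and estrogen-related receptors numbered 8. At 24 against 3 months 2 were higher and 1 lower at an unadjusted p under 0.05, beside 11.4% and 3.47% of all genes. Nr3c2 (chr8:76899442-77248535, GRCm38) encodes the mineralocorticoid receptor, the aldosterone receptor of the distal nephron. The gene shared 247 exonic bases with Gm10649 on the opposite strand. Nr3c2 was at 2.38, 4.0, 3.92, 3.98 and 3.86 FPKM in the 3-month mice, 5.85, 5.03, 5.71, 4.7 and 4.79 in the 12-month mice and 6.05, 6.02, 5.29, 6.87 and 4.56 in the 24-month mice. The highest 3-month mouse was at 4.003 FPKM and the lowest of the other 10 mice at 4.56 FPKM. The means of Nr3c2 were 3.63 ± 0.702, 5.22 ± 0.532 and 5.76 ± 0.871 FPKM at 3, 12 and 24 months (SD, n = 5 each). The difference was present at 12 months (log2 fold change 0.44, SE 0.12, unadjusted p = 0.00585, adjusted p = 0.161) and at 24 months (log2 fold change 0.55, SE 0.14, unadjusted p = 0.00259, adjusted p = 0.091). Replicate 5 at 3 months was the lowest, and without it the log2 fold change at 24 months was 0.44 (adjusted p = 0.109, limma). In 1 fit of all 15 mice the adjusted p was 0.0357.

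Esr2 encodes estrogen receptor beta. Esr2 was at 0.0477, 0.0482, 0.00733, 0.00892 and 0.0446 FPKM in the 3-month mice, 0.132, 0.12, 0.157, 0.0285 and 0.13 in the 12-month mice and 0.184, 0.135, 0.112, 0.143 and 0.0698 in the 24-month mice. Every 24-month mouse exceeded every 3-month mouse, and 4 of 5 mice at 12 months did so too (log2 fold change 0.13, SE 0.03, unadjusted p = 0.000784, adjusted p = 0.0553, and log2 fold change 0.11, SE 0.03, unadjusted p = 0.0055, adjusted p = 0.157 at 12 against 3 months). Its adjusted p fell to 0.0373 without 24-month replicate 35 and, at 12 against 3 months, to 0.0414 without 12-month replicate 20. Esrrb encodes an estrogen-related receptor with no known natural ligand. Esrrb was at 6.5, 6.77, 10.8, 13.2 and 6.86 FPKM in the 3-month mice, 6.91, 5.95, 3.44, 3.96 and 8.05 in the 12-month mice and 4.09, 6.55, 6.48, 4.57 and 5.03 in the 24-month mice. At 3 months 2 mice, at 10.8 and 13.2 FPKM, lay above all others, while the other three overlapped the older mice. The means of Esrrb were 8.82 ± 3.01, 5.66 ± 1.95 and 5.34 ± 1.12 FPKM at 3, 12 and 24 months (SD, n = 5 each). The log2 fold change was similar at 12 months (log2 fold change -0.56, SE 0.25, unadjusted p = 0.0507, adjusted p = 0.35) and at 24 months (log2 fold change -0.60, SE 0.21, unadjusted p = 0.0162, adjusted p = 0.207). Nr3c1, the glucocorticoid receptor, differed by 0.00 on the log2 scale at 24 against 3 months (SE 0.10, adjusted p = 0.995). Esr1 and Pgr, the estrogen receptor alpha and progesterone receptor genes, had log2 fold changes of 0.28 and -0.07 with unadjusted p of 0.185 and 0.398.

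Among the remaining 6 receptors, the 3 NR4A genes held the most negative fold changes of the set at 12 against 3 months. Nr4a1 (Nur77), Nr4a2 (Nurr1) and Nr4a3 (Nor1) lie on different chromosomes, and their promoters are shown because all 3 carry the same short element. The 250 bases before each RefSeq start (GRCm38.p6, gene strand) are given with TGACG, read on both strands and so also as CGTCA, in capitals. TGACG is the core of the cyclic AMP response element, whose full form TGACGTCA contains it.
Nr4a1, chr15:101266596-101266845, plus strand: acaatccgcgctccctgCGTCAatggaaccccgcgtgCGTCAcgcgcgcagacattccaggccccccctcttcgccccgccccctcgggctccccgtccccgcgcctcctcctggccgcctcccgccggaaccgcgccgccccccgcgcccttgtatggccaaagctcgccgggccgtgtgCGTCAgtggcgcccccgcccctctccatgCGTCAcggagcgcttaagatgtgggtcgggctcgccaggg
Nr4a2, chr2:57124004-57124253, minus strand: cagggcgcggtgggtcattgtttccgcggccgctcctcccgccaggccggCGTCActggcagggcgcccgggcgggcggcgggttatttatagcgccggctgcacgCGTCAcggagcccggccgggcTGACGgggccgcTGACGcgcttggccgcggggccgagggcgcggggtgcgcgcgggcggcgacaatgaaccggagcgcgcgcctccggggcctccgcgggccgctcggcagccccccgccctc
Nr4a3, chr4:48045055-48045304, plus strand: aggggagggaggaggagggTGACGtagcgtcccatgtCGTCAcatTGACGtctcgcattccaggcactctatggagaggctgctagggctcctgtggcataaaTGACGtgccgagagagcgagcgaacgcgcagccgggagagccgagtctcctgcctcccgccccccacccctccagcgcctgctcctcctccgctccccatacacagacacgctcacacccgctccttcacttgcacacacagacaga

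Each of the 3 windows held 4 matches to TGACG. They began 233, 213, 69 and 40 bases before the start of Nr4a1. Among 32851 promoter windows of this length, 17.8% held at least 1 match, and 12 of the 59 windows of the 38 receptors with an entry did (20.3%). At least 4 matches were in 45 windows (0.137%), of which these were the 3 among the 59. The cutoff of 4 equals the count found in these 3 windows, so the share at that cutoff is not a test of them. The full TGACGTCA was in 1.55% of all windows and in 0 of the 59. Of the other motifs searched, AGGTCA, the half-site that most nuclear receptors bind, was in 14.02% of all windows and in 9 of the 59, and the E-box CACGTG in 6.02% and in 5. The GC box GGGCGG was in 32.7% and in 27, the D-box TTATGTAA in 0.819% and in 0, and the glucocorticoid response element in 0.387% and in 0. Assembled isoforms of Nr4a1 and annotated isoforms of Nr4a3 began before or inside these windows, so the windows are upstream of the RefSeq start and not of every isoform.

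Nr4a1 was at 21.2, 13.7, 26.9, 17.7 and 28.4 FPKM in the 3-month mice, 14, 6.89, 14.7, 19.5 and 1.61 in the 12-month mice and 10.8, 19.6, 16.2, 9.78 and 5.21 in the 24-month mice. Of the 3-month mice 3 lay above all 10 older mice, and the other two overlapped them. The means of Nr4a1 were 21.6 ± 6.15, 11.3 ± 7.06 and 12.3 ± 5.65 FPKM at 3, 12 and 24 months (SD, n = 5 each). Nr4a3 was at 4.47, 1.13, 2.27, 1.64 and 3.08 FPKM in the 3-month mice, 0.839, 0.352, 1.21, 1.3 and 0.101 in the 12-month mice and 0.621, 1.19, 1.33, 1.05 and 0.444 in the 24-month mice. Of the 3-month mice 4 lay above the highest older mouse, which was at 1.33 FPKM. The means of Nr4a3 were 2.52 ± 1.31, 0.761 ± 0.525 and 0.926 ± 0.377 FPKM at 3, 12 and 24 months (SD, n = 5 each). Nr4a2 was at 3.06, 0.997, 3.35, 3.0 and 3.26 FPKM in the 3-month mice, 1.6, 0.459, 1.26, 2.44 and 0.215 in the 12-month mice and 1.55, 2.21, 3.09, 2.55 and 0.704 in the 24-month mice. For Nr4a2 the spread at 24 months reached the 3-month level, and all 12-month mice lay below 4 of the 5 mice at 3 months.

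Fold changes at 12 against 3 months were as follows. Nr4a1 differed by -1.13 on the log2 scale (SE 0.52, adjusted p = 0.358), Nr4a2 by -0.81 (SE 0.33, adjusted p = 0.299) and Nr4a3 by -0.98 (SE 0.30, adjusted p = 0.183). At 24 against 3 months they were -0.83, -0.31 and -0.81 in the same order, with adjusted p of 0.264, 0.662 and 0.175. The Nr4a2 value at 24 months was -0.12 without 24-month replicate 35 and -0.53 without 3-month replicate 6. Nr4a1 had an unadjusted p under 0.05 at 24 against 3 months in 11 of 17 settings, the reported one included, and Nr4a3 in 17 of 17. In 12-month replicate 21 all 3 genes had their lowest value of the 15 mice. Without that mouse the log2 fold changes at 12 months were -0.65, -0.63 and -0.82. The summed FPKM of 10 other immediate early genes was also lowest in that mouse, at 21.3, and ranged from 90.4 to 203 at 3 months, from 21.3 to 126 at 12 months and from 30.1 to 108 at 24 months. Of those 10 genes 0 were higher and 5 lower at an unadjusted p under 0.05 at 24 against 3 months. Of all genes 11.4% were higher and 3.47% lower at such a p. Dusp1 passed the adjusted threshold. Its call was lost in 9 of 10 fits with 1 mouse left out (limma adjusted p 0.0777 to 0.108).

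**Figure D3:**
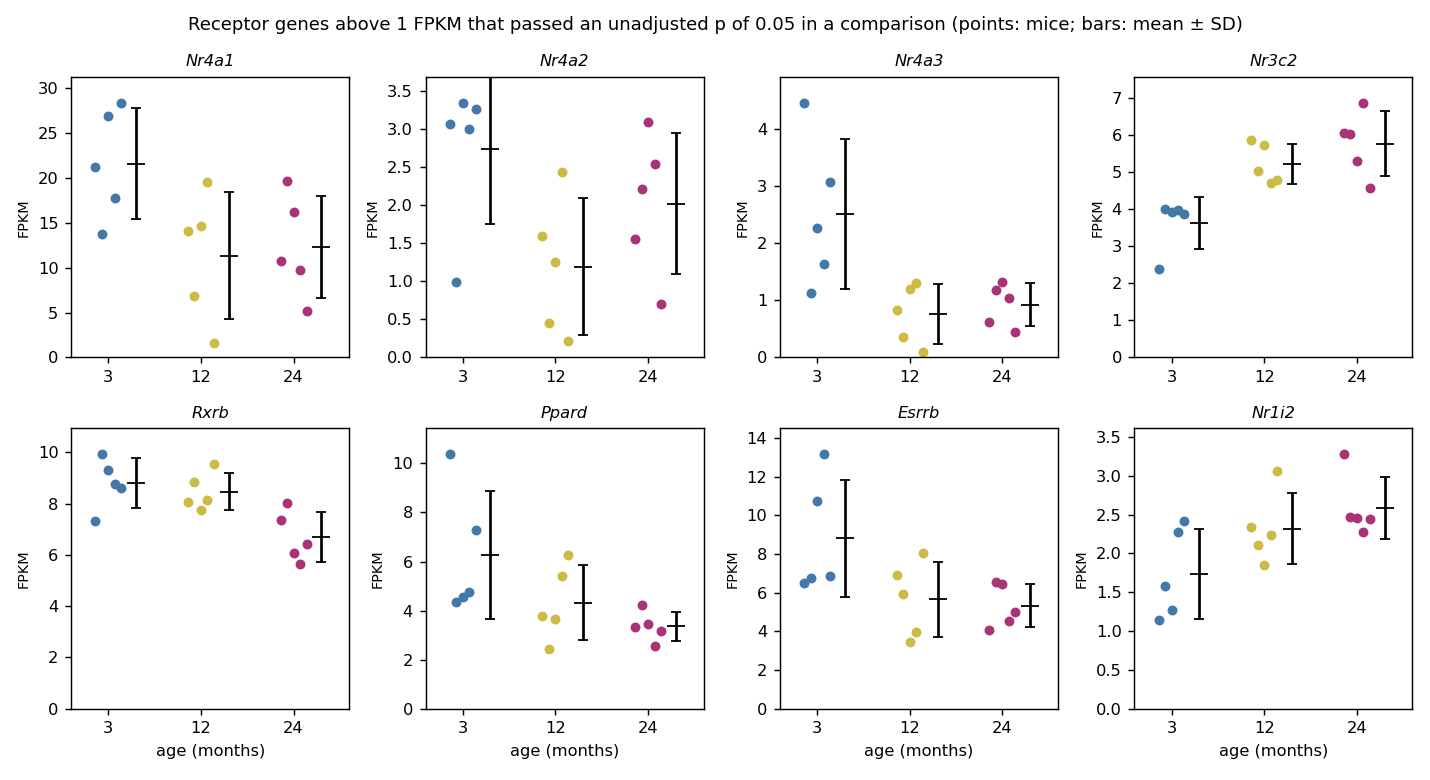
FPKM by age for the 8 receptor genes above 1 FPKM with an unadjusted p under 0.05 in a comparison; points are single mice (5 per age) and bars the mean ± SD, with axes from 0. Nr3c2 is higher and Ppard lower in every 24-month than in every 3-month mouse, while the other 6 genes overlap between those ages.

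Nr5a2 encodes the liver and exocrine receptor LRH-1 and was near 0.1 FPKM. Nr5a2 was at 0.073, 0.0162, 0.0587, 0.0283 and 0.0792 FPKM in the 3-month mice, 0.132, 0.149, 0.0907, 0.22 and 0.186 in the 12-month mice and 0.178, 0.105, 0.101, 0.146 and 0.111 in the 24-month mice. All 10 older mice lay above all 3-month mice (log2 fold change 0.10, SE 0.03, unadjusted p = 0.00252, adjusted p = 0.0902, and log2 fold change 0.14, SE 0.03, unadjusted p = 0.00177, adjusted p = 0.103 at 12 against 3 months). Nr6a1, the germ cell nuclear factor gene, and Nr0b2, which encodes the corepressor SHP, had adjusted p of 0.517 and 0.814 at 24 against 3 months. Of the 9 receptors under 1 FPKM, 5 had an unadjusted p under 0.05 at 24 against 3 months, 4 of them higher (Esr2, Rxrg, Nr5a2 and Nr1i3) and Rorb lower. Of all 18309 genes under 1 FPKM 12.0% had such a p, and 88.3% of those were higher. Aligned coverage was 5.03 to 6.13 gigabases in the 3-month libraries, which overlapped the 6.07 to 7.33 gigabases of the 24-month libraries only at the ends. Genes above 0 numbered 23354 to 24198 at 3 months and 24747 to 25435 at 24 months, with no overlap. The part of depth in these differences was not tested. For such genes the scale log2(FPKM + 1) understates the fold, and the ratio of mean FPKM at 24 to 3 months was 4.1 for Esr2, 4.06 for Rxrg, 2.51 for Nr5a2, 2.56 for Nr1i3 and 0.591 for Rorb.

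The 41 genes had 303 listed transcripts, of which 200 were annotated and 103 newly assembled. The most abundant isoform was an assembled one in 12 genes, and 1 isoform held over 50% of the gene's FPKM in 21 genes. The leading Hnf4a isoform was assembled and held 47.8%, Nr2f6-201 held 86.6% and Esrra-201 held 78.1%. Of 297 transcripts tested at 24 against 3 months, 0 had an adjusted p under 0.05, beside 0.0192% of all transcripts, and 25 had an unadjusted p under 0.05 (8.42%), beside 7.9%. Of the 25, 16 averaged at least 0.5 FPKM at 3 or 24 months, 10 higher and 6 lower, in 14 genes.

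The largest of these was an assembled Ppara isoform of 9 exons (chr15:85735769-85801721). The isoform was at 0.384, 0.0509, 0.277, 0.46 and 0.0468 FPKM in the 3-month mice, 3.78, 2.99, 1.24, 1.67 and 0.663 in the 12-month mice and 3.17, 1.26, 1.63, 3.57 and 3.71 in the 24-month mice. Every older mouse exceeded every 3-month mouse, and the share of this isoform in Ppara went from 1.39% at 3 months to 12.6% at 24 months (log2 fold change 1.51, SE 0.24, adjusted p = 0.12). The Ppara gene sum moved by 0.32 on the log2 scale (SE 0.26, adjusted p = 0.639). An assembled Ppard isoform of 7 exons (chr17:28278168-28301461) went the other way. The isoform was at 8.34, 2.75, 3.83, 1.1 and 5.7 FPKM in the 3-month mice, 2.23, 1.11, 2.58, 2.14 and 4.88 in the 12-month mice and 0.628, 0.21, 0.324, 1.46 and 1.84 in the 24-month mice. Its share of Ppard was 69.4% at 3 months and 26.6% at 24 months (log2 fold change -1.41, SE 0.41, adjusted p = 0.396), and the highest 24-month mouse exceeded the lowest 3-month mouse. Of 2 Nr3c2 isoforms that were higher, Nr3c2-203, a protein-coding form, is annotated. The isoform was at 0.566, 1.44, 1.4, 1.34 and 1.59 FPKM in the 3-month mice, 2.6, 2.14, 4.81, 2.08 and 2.49 in the 12-month mice and 2.89, 4.41, 3.09, 2.16 and 1.6 in the 24-month mice. Each 24-month mouse exceeded each 3-month mouse, though narrowly (log2 fold change 0.73, SE 0.22, adjusted p = 0.407). The other Nr3c2 isoform was assembled, held 7.09% of the gene at 3 months and 19.6% at 24 months, and did not overlap between these ages (log2 fold change 0.74, SE 0.19, adjusted p = 0.343).

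Retained-intron forms made up 4 of the remaining 12 isoforms, and these 4 were higher at 24 months. The 12 were picked by an unadjusted p under 0.05. At that p 5.72% of the receptor transcripts tested were higher, beside 5.43% of all transcripts. The share of retained-intron forms among all transcripts tested is not given here. Esr1-209 averaged 0.389 ± 0.078 FPKM at 3 months and 0.919 ± 0.279 at 24 months (SD, n = 5 each). Nr2f2-203 averaged 0.751 and 1.97 FPKM, Esrra-202 0.399 and 0.905 FPKM, and Nr1h3-205 0.044 and 0.596 FPKM. An assembled Nr1h4 form averaged 2.78 and 4.76 FPKM, an assembled Rora form 0.756 and 1.47 FPKM, and an assembled Nr2c2 form was listed at 0 in all 3-month mice and averaged 0.616 FPKM at 24 months. The protein-coding forms Nr4a1-201 (11.1 and 5.27 FPKM), Nr4a3-201 (1.18 and 0.451 FPKM) and Rxrb-202 (2.25 and 1.07 FPKM) were lower at 24 months. So were 2 assembled Vdr forms, at 7.23 and 4.53 FPKM and at 3.59 and 1.29 FPKM. Adjusted p for these 12 ranged from 0.407 to 0.620 (limma). StringTie divides reads between overlapping isoforms, so isoforms of 1 gene were not measured independently.

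Circular RNAs, made when a downstream splice site joins an upstream one, came from 12 of the 41 genes. The files listed 26 of them, 25 exonic and 1 from a Vdr intron, among 11929 in all. At 24 against 3 months 3 of 26 passed an adjusted p of 0.05 (edgeR quasi-likelihood test), beside 13.3% of all circular RNAs, so the share was near the background. Of the 3, 2 were higher, beside 6.66% of all, and 1 lower, beside 6.61%. The 3 junctions are shown as 30 bases of annotated exon sequence, the 15 before the junction in lower case and the 15 after it in capitals.
Esr1 circle, exons 2 to 7 (chr10:4669223-4939350): cttgctcctggacagGGTACTGGTCTCTTT
Nr3c2 circle, exon 2 (chr8:76908270-76910028): agaaaacgtgtcaagCTATGGAAACCAAAG
Hnf4a circle, exon 5 (chr2:163558955-163559110): cttctggatgaccagATCACCTCTCCCATC

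Levels of circular RNAs are given as CPM, the estimated counts scaled to each mouse's summed circular RNA counts with edgeR's TMM factors. A level is thus relative to the other circular RNAs of that mouse. The Esr1 circle (circRNA4916) held 6 exons, 1428 bases with 1247 coding, and the start codon. It was at 200, 159.8, 341, 200.1 and 187 CPM in the 3-month mice, 306, 369, 385, 279 and 305 in the 12-month mice and 398, 389.5, 366, 406 and 366 in the 24-month mice. All 24-month mice exceeded all 3-month mice, where replicate 7 stood at 341 CPM and the others at or below 200.1 CPM. It rose by 0.82 on the log2 scale (edgeR adjusted p = 0.00785), and the linear Esr1 gene differed by 0.28 with an unadjusted p of 0.185. Leaving out any 1 of the 10 mice kept its adjusted p at or below 0.0213.

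The Nr3c2 circle (circRNA8749) was the single exon 2 with 1757 coding bases of 1759, start codon included. It was at 31.5, 54.5, 46.8, 36.3 and 53 CPM in the 3-month mice, 60.3, 49.9, 54.2, 69.9 and 71.8 in the 12-month mice and 65.4, 84.7, 63.3, 55.3 and 57 in the 24-month mice. The lowest 24-month mouse, at 55.3 CPM, lay just above the highest 3-month mouse, at 54.5 CPM. It rose by 0.55 on the log2 scale (edgeR adjusted p = 0.0412). This call was lost without 3-month replicate 5, 7 or 8 or 24-month replicate 31, 32, 33 or 35, with adjusted p from 0.0521 to 0.0919. A second Nr3c2 circle, of exons 4 to 8 (circRNA3734), averaged 166 ± 35.7 CPM at 3 months and 214 ± 24.8 CPM at 24 months (SD, n = 5 each, edgeR adjusted p = 0.118).

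The Hnf4a circle (circRNA5522) was exon 5 alone, 156 coding bases. It was at 82, 93.5, 72.6, 73.6 and 68.7 CPM in the 3-month mice, 77.3, 68, 64.1, 63.2 and 77.2 in the 12-month mice and 67.6, 66.8, 56.4, 57.5 and 51.7 in the 24-month mice. Every 24-month mouse lay below every 3-month mouse, by a gap from 67.6 to 68.7 CPM. It fell by 0.38 on the log2 scale (edgeR adjusted p = 0.0327), while the larger Hnf4a circle of exons 2 to 5 had 363 ± 72.1 CPM at 3 months and 369 ± 44.8 CPM at 24 months (adjusted p = 0.934). The call was lost without 3-month replicate 6 or 24-month replicate 33, 34 or 35, with adjusted p from 0.0601 to 0.0847. The 3 Nr2c2 circles had higher values at 24 months (log2 fold changes 0.21, 0.19 and 0.26, edgeR adjusted p = 0.0875, 0.122 and 0.0681). Without 3-month replicate 6 the adjusted p of circRNA3471 was 0.0360 and that of circRNA5994 was 0.0391.

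The most abundant receptor circle was circRNA8025, exons 2 to 4 of Esrrg. It was at 5321, 5531, 6847, 6321 and 5956 CPM in the 3-month mice, 5178, 5394, 6621, 6029.8 and 6486 in the 12-month mice and 6816, 6668, 6539.6, 5536 and 5603 in the 24-month mice. It averaged 6057 CPM over the 15 mice, against 881 CPM for the next, a Thrb circle, and its ages overlapped (edgeR adjusted p = 0.792). Esrrg gave 6 of the 26 circles, Thrb and Nr2c2 3 each. Total estimated circular RNA counts were 6974494 to 9889971 per mouse. How these counts were made, and whether they hold junction reads only, is not given in the sources used here.

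**Figure D4:**
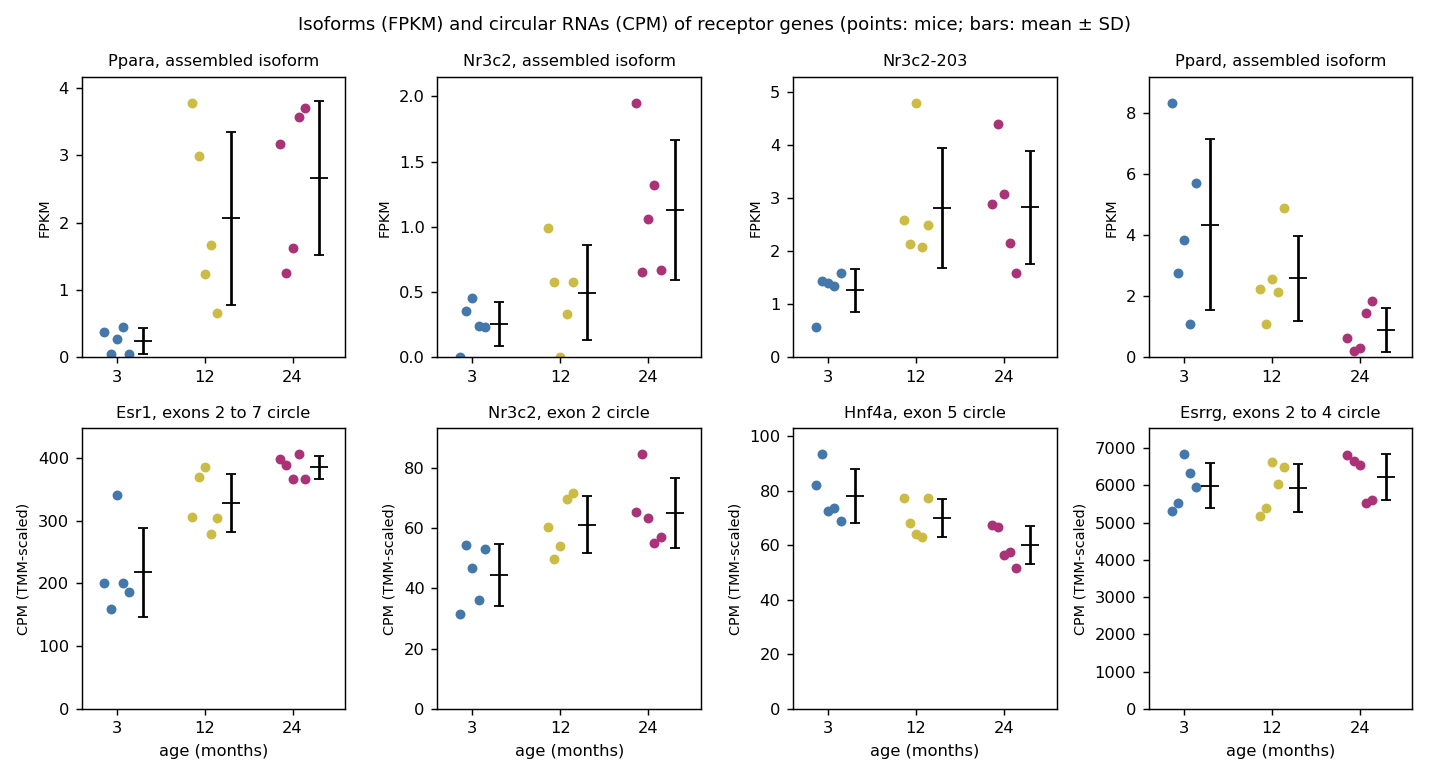
Top row, FPKM of 4 receptor isoforms; bottom row, CPM (TMM-scaled) of 4 receptor circular RNAs, by age; points are single mice (5 per age), bars the mean ± SD, and axes start at 0. The Ppara and Nr3c2 isoforms and the Esr1 and Nr3c2 circles are higher, and the Hnf4a circle lower, in every 24-month than in every 3-month mouse.

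The partners, ligand enzymes and targets of the receptors were read from 12 lists at 24 against 3 months. Among 17 coregulators, 1 was higher (Ppargc1b, 3.25 ± 0.628 FPKM at 3 months and 4.54 ± 0.981 at 24 months) and 1 lower (Crebbp, 17.2 ± 2.19 and 14.3 ± 0.828 FPKM) at an unadjusted p under 0.05, with 0 adjusted. The background was 11.4% of genes higher and 3.47% lower at an unadjusted p under 0.05 and 1.22% at the adjusted threshold, and SD here and below is over 5 mice.

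Of 9 receptor chaperones, 5 were lower and 0 higher at an unadjusted p under 0.05, and 2 passed the adjusted threshold. Hspa8, the constitutive HSC70, fell from 728 ± 114 FPKM to 276 ± 83.5 FPKM (log2 fold change -1.43, limma adjusted p = 0.0216). Hspa1b, the inducible HSP70, fell from 18 ± 7.8 to 4.45 ± 1.44 FPKM (log2 fold change -1.75, adjusted p = 0.0211). Hspa1a averaged 11.7 and 2.35 FPKM, Stip1 17.3 and 12.8 FPKM, and Hsp90ab1, the main chaperone of unliganded steroid receptors, 196 and 148 FPKM. Hspa1a was listed at 0 in 24-month replicate 35, where Hspa1b was at 3.95 FPKM. Hspa1b was listed at 0 in 12-month replicate 21, where Hspa1a was at 2.07 FPKM. How reads were divided between Hspa1a and Hspa1b was not tested. Hspa8 ranged from 579 to 897 FPKM in the 3-month mice, from 304 to 437 FPKM at 12 months and from 205 to 419 FPKM at 24 months, with no overlap between 3 months and either older age. The Hspa8 call was lost without 3-month replicate 5, 7, 8 or 9 or 24-month replicate 31, 33 or 34 (adjusted p 0.0503 to 0.0591). The Hspa1b call was lost without 3-month replicate 8 or 9 or 24-month replicate 33 or 34 (adjusted p 0.0505 to 0.0550).

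Of 15 glucocorticoid and mineralocorticoid receptor targets, 0 were higher and 5 lower at an unadjusted p under 0.05, beside 11.4% of all genes higher and 3.47% lower, and the median log2 fold change was -0.35. Fkbp5, a cochaperone and classical glucocorticoid target, averaged 12.5 ± 4.87 FPKM at 3 months and 4.97 ± 1.46 at 24 months. Zbtb16 averaged 19.1 ± 6.11 and 7.0 ± 3.63 FPKM, and Errfi1 86.2 ± 14.4 and 52.4 ± 13.8 FPKM. Dusp1, a phosphatase that is also an immediate early gene, fell from 65.6 ± 8.01 to 26.9 ± 13.4 FPKM (log2 fold change -1.36, limma adjusted p = 0.0477). Its call was lost when any mouse but 24-month replicate 32 was left out (adjusted p 0.0777 to 0.108), and after quantile normalization (adjusted p = 0.0767). Fkbp5 had an adjusted p of 0.0428 without 3-month replicate 7.

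Of 6 vitamin D receptor targets, Trpv5, the calcium entry channel of the distal tubule, fell from 5.52 ± 0.518 FPKM to 3.29 ± 0.268 FPKM (log2 fold change -0.60, limma adjusted p = 0.0146). The other 5, Cyp24a1, Cyp27b1, S100g, Calb1 and Trpv6, had an unadjusted p above 0.05. Of 10 FXR, PXR and CAR targets, the drug efflux pump Abcb1a rose from 1.17 ± 0.134 to 2.42 ± 0.373 FPKM (log2 fold change 0.65, limma adjusted p = 0.0286). That call was lost without any 1 of the 5 3-month mice or without 24-month replicate 33 or 34 (adjusted p 0.0534 to 0.0675), and after quantile normalization (adjusted p = 0.0727). Slc51a, the bile acid exporter subunit, averaged 13.3 ± 8.6 and 22.6 ± 3.27 FPKM, Cyp3a13 0.066 and 0.189 FPKM, and Cyp2b10 0.246 and 0.0738 FPKM.

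Of 20 genes that make, carry or break down ligands, 3 were higher and 2 lower at an unadjusted p under 0.05, with 0 adjusted. The retinoic acid synthases Aldh1a2 and Aldh1a1 averaged 1.29 and 3.2 FPKM and 8.0 and 16.1 FPKM at 3 and 24 months. Aldh1a2 had an adjusted p of 0.0442 without 24-month replicate 32. The retinoic acid hydroxylase Cyp26a1 averaged 0.0398 and 0.161 FPKM. Rdh10, which makes retinal, averaged 6.59 and 4.88 FPKM. Hsd11b2, which inactivates glucocorticoids where the mineralocorticoid receptor acts, averaged 37.1 ± 19.5 and 16.6 ± 6.74 FPKM (limma adjusted p = 0.301).

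In the lists for the other receptors few genes stood apart. Of 19 PPAR targets, Pdk4 alone had an unadjusted p under 0.05, at 32.2 ± 13.3 FPKM at 3 months and 13.5 ± 4.8 at 24 months (adjusted p = 0.133). Of 8 LXR targets 0 did. Of 11 thyroid hormone and retinoic acid receptor targets Cyp26a1 was higher and Thrsp lower (1.36 and 0.497 FPKM), and of 14 HNF4 and ERR targets Apom was higher (9.14 and 12.9 FPKM) and Ttr lower (23.7 and 13.8 FPKM). The list medians were -0.02, -0.04, 0.13 and -0.11 in that order, where the median of all genes was 0.02. Of 17 clock genes, on which the RORs act, 12 had an unadjusted p under 0.05 and 5 an adjusted p under 0.05. Of these Arntl, Npas2 and Nfil3 fell by 2.51, 1.97 and 2.41 on the log2 scale, and Dbp and Per3 rose by 2.60 and 1.64. The paper gives a shared day of collection for young and old mice but no hour, and the part of the hour in these differences was not tested. The Dbp call was lost without 24-month replicate 33 or 3-month replicate 5 (adjusted p 0.0562 and 0.0529). The Per3 call was lost without 3-month replicate 5, 6 or 9 or 24-month replicate 31, 33 or 34 (adjusted p 0.0630 to 0.0678). The lists share genes, such as Dusp1, Cyp26a1 and Klf9.

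**Figure D5:**
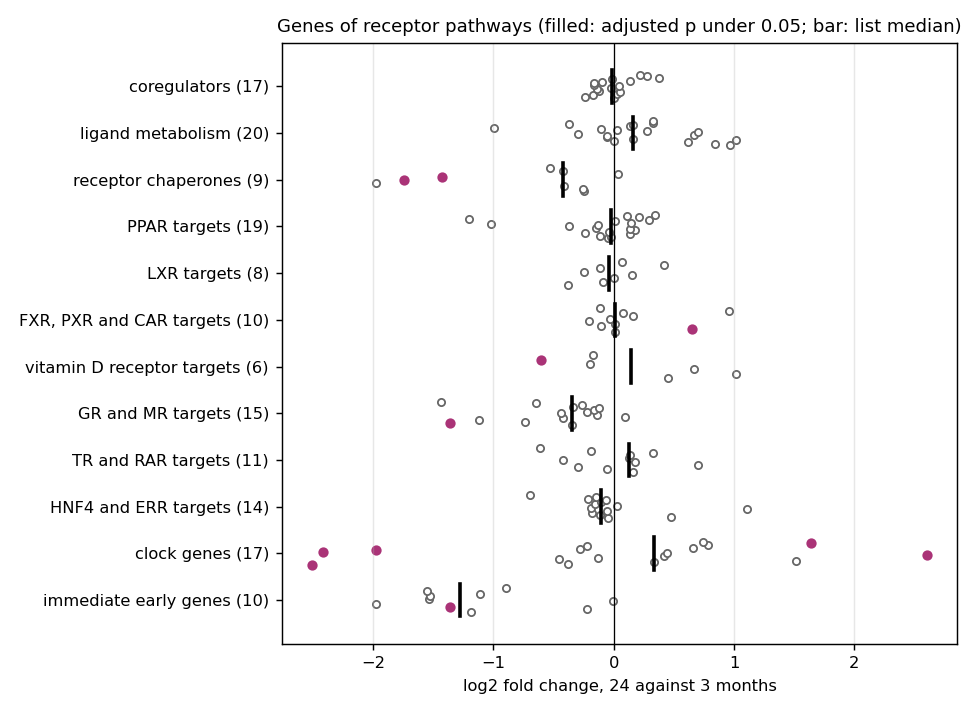
Log2 fold change at 24 against 3 months (log2(FPKM + 1), 5 mice per age) of every gene in 12 receptor pathway lists, with the list size in brackets; filled points have an adjusted p under 0.05 and bars mark list medians. The medians of the immediate early, chaperone and glucocorticoid and mineralocorticoid target lists lie at -1.28, -0.42 and -0.35, against 0.02 for all genes.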

How the data were processed

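Kidney RNA of 15 mice was sequenced after ribosomal RNA removal per the labels, whereas the paper's methods describe oligo(dT) selection. Ages were taken from the age label, since all titles begin with 3M. Per the paper's methods, Cutadapt 1.9 trimmed the reads, Bowtie2 and Hisat2 aligned these against GRCm38 (Ensembl v88), and the authors assembled transcripts by StringTie, and the submitters' processing notes also name TopHat and TopHat2. The deposited linear values are FPKM per transcript, and the deposited coverage was used only for depth. The deposited circular RNA values are estimated counts, of which 83.7% to 94.8% per mouse were not whole, so they were rounded here. The authors' own FPKM divides by the library total, so abundant transcripts shift the rest. One lymphocyte marker gene is not reported here and was left out of its list. The deposited authors' comparisons (fold changes and p-values) were not used.

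The 41 members and all lists were chosen with earlier results of these data known. Gene FPKM was summed over 4 class codes and tested as log2(FPKM + 1) with limma 3.58.1 (trend) in R 4.3.3, between 2 ages at a time, over genes above 0 in at least 1 mouse of both ages. Circular RNAs above 0 in at least 5 of 10 mice were tested with edgeR 4.0.16 (TMM, quasi-likelihood), with DESeq2 1.42.0 as an alternative. P-values were adjusted by Benjamini-Hochberg over all features. Both fits were tested on simulated data. The methods mention pooled kidney RNA, while the labels give 1 library per mouse, so p-values measure the spread between these samples. Mouse values were given for receptors with an unadjusted p under 0.05 in a comparison, the 6 most abundant and Rxra; isoforms of at least 0.5 FPKM and circles with such a p; and up to 4 list genes per direction. Exon overlaps and junctions came from GENCODE vM21 and promoters from RefSeq (GRCm38.p6, 38 of 41 genes matched). Whether counting used strand is not given in the sources used here. Alternatives were another pseudocount (0.1), a mean of at least 0.5 FPKM, TPM, quantile normalization, annotated isoforms alone, 1 fit of 15 mice and leaving out each mouse.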

Additional observations from a re-analysis of the deposited data

Results flagged for a closer look

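Mice that stood apart from the other 4 of their age were looked for in each receptor gene, each isoform named with an unadjusted p under 0.05 and each such circular RNA, by a gap to the nearest mouse over 0.71 of the range (Dixon). This held for 19 of 192 groups, 12 of them among the 123 groups of gene values, where chance gives about 1 in 20.

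At 3 months, replicate 5 had 9.24 FPKM of Thra against 13.7 to 14.99 in the other mice and 2.38 FPKM of Nr3c2 against 3.86 to 4.003. The same mouse had 0.566 FPKM of the isoform Nr3c2-203 against 1.34 to 1.59 and 0.529 FPKM of Esr1-209 against 0.351 to 0.361. Replicate 6 had 0.997 FPKM of Nr4a2 against 3.00 to 3.35. Replicate 7 had 341 CPM of the Esr1 circle circRNA4916 against 160 to 200. Replicate 8 had 12.3 FPKM of Nr1h2 (LXRbeta) against 14.6 to 15.1, 9.38 FPKM of an assembled Vdr isoform against 1.89 to 2.70, and 0.222 FPKM of Nr1h3-205, which was listed at 0 in the others.

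At 12 months, replicate 17 had 19.4 FPKM of the glucocorticoid receptor gene Nr3c1 against 6.71 to 10.2 and 4.36 FPKM of Rarb against 2.79 to 3.11. Replicate 19 had 4.81 FPKM of Nr3c2-203 against 2.08 to 2.598. Replicate 20 had 0.0285 FPKM of Esr2 against 0.120 to 0.157, 0.0740 FPKM of Nr2e3 against 0 to 0.0156 and 1.18 FPKM of Nr0b2 against 0.406 to 0.613. Replicate 21 had 9.21 FPKM of Rara against 4.75 to 5.90 and 0.550 FPKM of Nr1h3-205, listed at 0 in the others.

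At 24 months, replicate 31 had 11.8 FPKM of Nr3c1 against 8.32 to 8.73 and 3.28 FPKM of Nr1i2 against 2.28 to 2.47.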

How the results depend on the processing

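No receptor gene had an adjusted p under 0.05 at 24 against 12 months under any setting tried. At 24 against 3 months the count of 0 became 2 (Nr3c2 and Rorb) with all 15 mice in 1 fit and 1 (Rorb) after quantile normalization, and ranged from 0 to 1 over the left-out mice. At 12 against 3 months it became 1 (Rorb) after quantile normalization and ranged from 0 to 1. The 12 receptors at an unadjusted p under 0.05 at 24 against 3 months became 7 with a mean of at least 0.5 FPKM, which leaves fewer genes to test, and ranged from 11 to 13 over the left-out mice. The 6 at 12 against 3 months ranged from 5 to 8. The 2 at 24 against 12 months became 4 with annotated isoforms alone and 1 with that filter, and ranged from 2 to 6. Isoform counts of 0 adjusted stayed at 0, and the 25 at an unadjusted p became 14 with the filter and ranged from 18 to 33. The 3 circular RNAs called became 4 with DESeq2 and ranged from 1 to 4 over the left-out mice, reaching 1 without 24-month replicate 33 or 35, and the 7 at an unadjusted p ranged from 6 to 8. The 10 genes of the pathway lists with an adjusted p under 0.05 ranged from 4 to 11 and those at an unadjusted p, 42, from 35 to 44. The list count was 4, 5, 5, 6 and 5 without 24-month replicate 33 or 34 or 3-month replicate 5, 8 or 9.

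Of the values of receptors in the comparisons where they had an unadjusted p under 0.05, and of the isoforms, circles and list genes named for such a p at 24 against 3 months, 978 kept their direction and side of the threshold, 48 lost it, 11 gained it and 0 changed sign. Ppard kept its sign but not its size, at -0.04 with annotated isoforms alone. Over all receptors and settings the sign changed in 29 of 648 values at 24 against 3 months, 48 of 648 at 12 against 3 months and 35 of 648 at 24 against 12 months. Nr4a1 at 24 against 12 months was 0.30 and, without 12-month replicate 21, -0.19. Scaling moved the median of all genes by under 0.1 on the log2 scale. No paired analysis was possible because the mouse numbers of the labels (5 to 9, 17 to 21 and 31 to 35) are not shared between ages. FPKM gives no counting interval, and the part of depth in the values of the 9 receptors under 1 FPKM was not tested.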
